A study of Mus musculus with 24 samples.

Results

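The promoter peaks of protein-coding genes were followed by ATAC-seq in macrophages grown from mouse bone marrow (BMDMs). ATAC-seq is an assay in which the Tn5 transposase cuts and tags DNA that is not covered by nucleosomes, so that the fragments sequenced from a region measure its accessibility. A promoter peak was a consensus peak on chromosomes 1 to 19 that lay within 1 kb of the transcription start site (TSS) of a protein-coding transcript of the GENCODE basic annotation. By this rule 15470 of 184158 consensus peaks (8.4%) were promoter peaks, and no accessibility value entered it. They belonged to 14673 of 20696 annotated protein-coding genes. The 24 libraries formed 4 groups of 6, which combine the genotypes WT and AhR-KO with the treatments unstimulated and LPS. WT marrow came from C57/B6/J mice, and AhR-KO marrow from mice of the line B6.129-Ahr tm1Bra/J, whose germline allele disrupts the gene of the aryl hydrocarbon receptor (AhR) in every cell. The mice were 7 to 14 weeks old and of both sexes per the study's methods, and no source names them littermates, so loss of Ahr and differences in strain background cannot be told apart. Marrow of both genotypes was grown with the growth factors GM-CSF (at 10 ng/ml) and TGF-β (at 2 ng/ml) in 10% serum, which gives cells that resemble alveolar macrophages. LPS (lipopolysaccharide, a component of the bacterial cell wall) was added on day 6 at 97 EU/ml for 24 h and was followed by the calcium ionophore A23187 at 5 µM for 10 min. The labels attach that text to all libraries and do not say what the unstimulated cultures received. The figure legends of the study give 6 animals per group from a single experiment, so p-values measure the spread between animals within that experiment. No source says whether an unstimulated and an LPS culture of the same number shared their animal.

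A promoter is the stretch of DNA around a TSS where RNA polymerase II and the general transcription factors assemble. Most mammalian promoters of widely used genes lie in CpG islands, stretches in which the dinucleotide CpG has not been lost, and these stay free of nucleosomes in nearly all cell types. Promoters poor in CpG are more often those of tissue-restricted or inducible genes and open in the cells that use them. AhR is switched on by small ligands and then binds, together with ARNT, the xenobiotic response element (XRE) with the core GCGTG. LPS is sensed by TLR4, which activates NF-kB and, through interferon beta, the factors that bind interferon-stimulated response elements (ISREs). The comparisons asked which promoters changed with loss of AhR, which changed with LPS, and whether the one effect depended on the other.

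The 250 bases before the TSS are shown for 6 promoters whose values are described further on, to let the reader see a CpG-poor or mixed inducible promoter beside a CpG island. The genes were chosen after their values were seen. Sequences are those of RefSeq (GRCm38.p6, which has the coordinates of mm10), written 5′ to 3′ on the strand of the gene, and capitals mark every run that matched the named motif on either strand. Ahrr (chr13:74292332-74292581, minus strand) shows 3 runs of the XRE core, Ifit3 (chr19:34583279-34583528, plus strand) 2 runs of the ISRE pattern GAAA, any pair of bases, then GAAA, and Hamp (chr7:30944030-30944279, minus strand) 1 run of the AP-1 site TGANTCA. Cxcl3 (chr5:90785851-90786100, plus strand) shows 1 NF-kB run (GGGANTTCC, or the same with one more N), Mrc1 (chr2:14229164-14229413, plus strand) 2 runs of the PU.1 site GAGGAAG, and Sdha (chr13:74350241-74350490, minus strand) 3 runs of the NRF1 pattern (GCGC, any base, TGCGC), where overlapping matches are joined. A match describes the letters and not a bound site.
Ahrr: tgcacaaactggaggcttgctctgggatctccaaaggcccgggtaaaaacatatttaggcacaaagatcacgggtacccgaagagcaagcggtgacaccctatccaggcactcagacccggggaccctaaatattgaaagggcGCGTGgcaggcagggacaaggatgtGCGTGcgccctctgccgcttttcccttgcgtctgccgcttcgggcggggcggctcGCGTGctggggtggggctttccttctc
Ifit3: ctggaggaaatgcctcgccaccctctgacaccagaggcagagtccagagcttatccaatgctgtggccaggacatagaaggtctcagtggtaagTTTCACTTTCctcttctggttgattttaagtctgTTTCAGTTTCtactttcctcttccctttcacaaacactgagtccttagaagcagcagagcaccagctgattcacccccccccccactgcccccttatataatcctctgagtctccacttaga
Hamp: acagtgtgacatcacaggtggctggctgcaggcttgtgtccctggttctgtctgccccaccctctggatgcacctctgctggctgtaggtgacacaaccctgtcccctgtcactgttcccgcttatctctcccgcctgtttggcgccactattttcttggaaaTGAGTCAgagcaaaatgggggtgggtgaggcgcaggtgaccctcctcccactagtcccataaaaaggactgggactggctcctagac
Cxcl3: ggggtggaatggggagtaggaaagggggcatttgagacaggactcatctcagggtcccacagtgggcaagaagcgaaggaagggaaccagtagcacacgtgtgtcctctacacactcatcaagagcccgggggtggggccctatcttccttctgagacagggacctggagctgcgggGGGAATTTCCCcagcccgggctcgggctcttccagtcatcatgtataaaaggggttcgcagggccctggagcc
Mrc1: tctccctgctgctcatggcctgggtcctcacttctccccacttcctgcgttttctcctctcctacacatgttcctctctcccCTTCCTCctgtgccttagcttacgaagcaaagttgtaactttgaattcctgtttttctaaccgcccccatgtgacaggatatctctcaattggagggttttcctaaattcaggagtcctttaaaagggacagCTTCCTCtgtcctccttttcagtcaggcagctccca
Sdha: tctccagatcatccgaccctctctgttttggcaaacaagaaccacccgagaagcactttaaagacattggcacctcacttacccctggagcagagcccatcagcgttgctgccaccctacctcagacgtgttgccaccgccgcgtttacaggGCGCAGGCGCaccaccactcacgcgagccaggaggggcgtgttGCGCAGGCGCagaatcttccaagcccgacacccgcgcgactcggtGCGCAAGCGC

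As regions, the promoter peaks stood apart from the other consensus peaks. Their median width was 1256 bases against 512 for the rest, their median level 11.6 against 3.38 CPM per kb (counts relative to a library total of 1 M counts and to the width, averaged over the libraries), and their median GC content 57% against 46%. A peak was called in all 24 libraries at 11821 promoters (76.4%), against 23.4% of the other peaks, and in 12 or fewer libraries at 2190. By the ratio of observed to expected CpG in the 1000 bases around the nearest TSS, 9426 promoters were CpG-rich (at least 0.6), 3683 CpG-poor (below 0.4) and 2361 intermediate. The median level was 15.4 CPM per kb in CpG-rich, 8.76 in intermediate and 5.02 in CpG-poor promoters, and 95.1%, 84% and 57.3% of these peaks covered a TSS. In all, 13060 promoter peaks (84.4%) covered a TSS, 1270 lay near 2 or more genes, 1149 held TSSs on both strands, and 1697 genes had 2 or more promoter peaks, with a highest number of 8.

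The promoters of macrophage markers were open in every group. All 13 had a tested promoter peak (Csf1r, Spi1, Cd68, Itgam, Adgre1, Lyz2, Mrc1, Itgax, Mertk, Fcgr1, Cd14, Tlr4 and Siglecf), with a summed level of 188 to 292 CPM per kb over the 24 libraries. The T cell markers Cd3e, Cd3d, Cd3g, Cd8a, Cd4 and Lck had no promoter peak at all, and neither had Cd79a and Pax5 of B cells, Ncr1 of NK cells, Ly6g, Elane and Mpo of neutrophils, Cpa3, Mcpt8 and Ms4a2 of mast cells and basophils, Clec9a of dendritic cells, Dcn of fibroblasts, Krt8 and Sftpc of epithelial cells, or Hba-a1 and Hbb-bs of erythroid cells. The other genes of these lists did have a tested promoter peak. Over the 24 libraries their summed level was 27.2 to 40.2 CPM per kb for B cells (4 of 6 genes), 11.8 to 18 for NK cells (3 of 4), 20.5 to 28.2 for fibroblasts (4 of 5), 7.93 to 15.4 for epithelial cells (3 of 5) and 21.1 to 28.1 for erythroid cells (3 of 5). With LPS the B cell list held 30.8 to 39.2 in WT (mean 33.6) and 35.7 to 40.2 in AhR-KO (mean 37). The NK cell list held 11.8 to 13.2 in WT (mean 12.6) and 13.2 to 15.2 in AhR-KO (mean 14.3). Without LPS the means in WT and AhR-KO were 28.9 and 29.6 for B cells and 15.8 and 16.6 for NK cells. For epithelial cells the means in WT and AhR-KO were 13.5 and 10.6 without LPS and 9.98 and 9.23 with it. Of the mast cell and basophil list, 2 of 5 genes had a promoter peak (Kit, the stem cell factor receptor, and Gata2), and their summed level differed by genotype. It was 6.21 to 8.69 CPM per kb in WT unstimulated and 3.97 to 4.77 in AhR-KO unstimulated, and 7.89 to 10.3 in WT LPS and 4.52 to 6 in AhR-KO LPS. For the dendritic cell list (4 of 5 genes) it was 23.9 to 40.6 CPM per kb in WT LPS and 17.9 to 23.3 in AhR-KO LPS, whereas without LPS the ranges 26 to 28.8 and 21.8 to 27.1 overlapped. For the neutrophil list (5 of 8 genes) it was 39.3 to 56 in WT unstimulated (mean 46.5) and 37.2 to 41.2 in AhR-KO unstimulated (mean 39.8). With LPS it was 34.2 to 52.7 in WT (mean 43.7) and 40.1 to 48.5 in AhR-KO (mean 44.7). The ranges overlapped in both treatments. The part of these cells in the genotype results below was not tested, and in bulk chromatin fewer cells with an open promoter and less opening per cell cannot be told apart.

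The libraries held between 8.54 and 34.6 M counts within peaks, with the lowest in WT unstimulated replicate 5 and the highest group in WT LPS (25.1 to 34.6 M). A peak was tested if it passed a filter on low counts, which 15273 promoter peaks of 14561 genes did and 197 did not. Tests were fitted with edgeR on all 174193 peaks that passed, p-values were adjusted over all of these, and a differentially accessible region (DAR) had to change by 1.5-fold or more with an adjusted p no higher than 0.05. Levels of single promoters are in CPM (the count relative to 1 M of the TMM-normalized total) and are given as the lowest, the median and the highest of the 6 libraries of a group. Since peaks differ in width, CPM is compared between groups and not between genes. Of the targeted gene itself, the promoter peak (chr12:35534070-35535364) held 20.2, 22.3 and 24.6 CPM in WT unstimulated and 11.5, 13.1 and 15.1 CPM in AhR-KO unstimulated, which did not overlap, and 19, 19.9 and 22.2 CPM in WT LPS and 11.9, 15.1 and 16.8 CPM in AhR-KO LPS. It was a lower DAR in AhR-KO without LPS, at -0.78 (SE 0.0765, adjusted p = 2.98e-10) on the log2 scale, and with LPS the difference of -0.45 (SE 0.0736, adjusted p = 4.52e-06) was under the fold threshold. This peak does not reach the exon that the allele lacks, so it checks nothing about the knockout.

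Measured per library, the promoters as a whole moved little. Promoter peaks held 33.8 ± 0.602% of the counts of WT unstimulated libraries and 33.5 ± 0.841% of those of AhR-KO unstimulated ones, and with LPS 32.3 ± 0.887% in WT and 31 ± 0.915% in AhR-KO (SD, n = 6 each). With LPS the share fell by 1.55 points in WT (two-sided exact permutation p = 0.0108, or 0.0325 adjusted over 12 tests) and by 2.43 points in AhR-KO (p = 0.00216 by the same exact permutation test, the lowest that 924 assignments allow, adjusted 0.013). The fall in WT lost its call without WT unstimulated replicate 5 (-1.49 points, adjusted exact permutation p = 0.0584). Between genotypes the difference was -0.376 points without LPS (exact permutation p = 0.392, adjusted 0.522) and -1.25 with LPS (exact permutation p = 0.039, adjusted 0.0779), and neither passed. A tilt of counts toward GC-rich peaks moved with treatment as well. Taken as the median log2 deviation of peaks in the highest GC bins minus that in the lowest, it was 0.0862 to 0.223 in unstimulated WT, 0.0045 to 0.185 in unstimulated AhR-KO, and with LPS -0.102 to 0.0693 in WT and -0.288 to -0.101 in AhR-KO. With an offset for GC in the fit, the median log2 fold change of promoters with LPS was -0.00288 in WT and -0.0296 in AhR-KO, in place of -0.0673 and -0.109. For the share of counts itself the part of this tilt was not tested.

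The number of promoter peaks called in a library was 13350 ± 397 in unstimulated WT and 13384 ± 116 in unstimulated AhR-KO, and with LPS 13686 ± 76.9 in WT and 13293 ± 104 in AhR-KO (SD, n = 6). With LPS the genotypes did not overlap, and AhR-KO minus WT was -393 (exact permutation p = 0.00216, adjusted 0.013), although total counts were also lower there (22.4 to 28.5 M against 25.1 to 34.6 M). LPS added 336 in WT (exact permutation p = 0.0108, adjusted 0.0325). Without WT unstimulated replicate 5, in which 12603 were called, this was 186 and no longer passed (adjusted exact permutation p = 0.0584). In AhR-KO the difference with LPS was -90.8 (exact permutation p = 0.175, adjusted 0.263). CpG-poor promoters took between 9.63% and 10.4% of the promoter counts in the 24 libraries, and none of the 4 comparisons of that share passed the adjusted threshold, of which the smallest value was 0.0779. The plot of these measures shows every library.

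**Figure D1:**
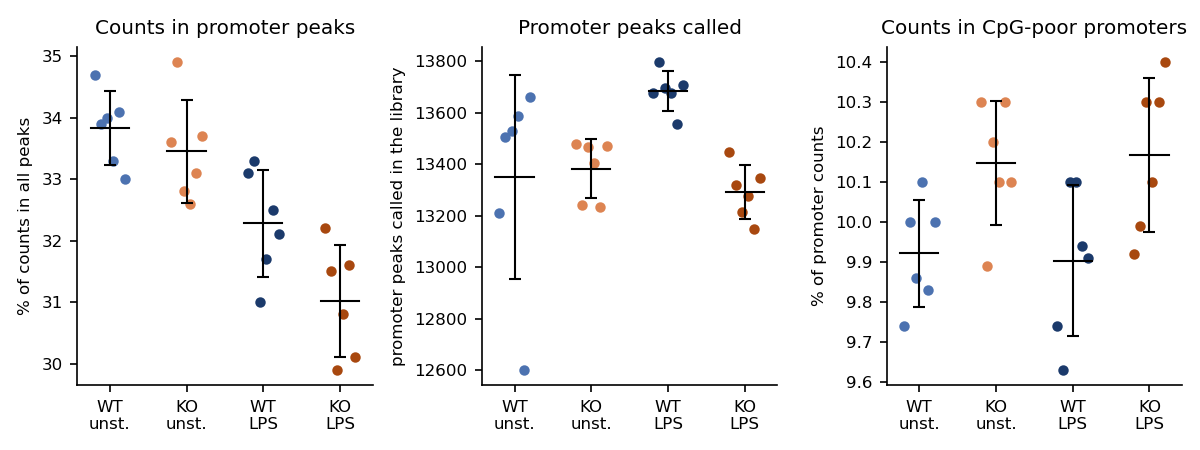
Each point is 1 library, the long bar is the mean and the whiskers are 1 SD of the 6 libraries of a group; the panels give the percent of consensus peak counts in promoter peaks, the number of promoter peaks called in the library, and the percent of promoter counts in CpG-poor promoters (the vertical axes do not start at 0). The share falls from 33.8% in WT unstimulated to 31% in AhR-KO LPS, and the lowest number of called promoters, 12603, is that of WT unstimulated replicate 5.

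Most promoters were no DAR, although smaller changes were common. By the adjusted p of edgeR alone, with no fold threshold, 3753 promoters were lower and 3379 higher between genotypes without LPS. With LPS 3510 were lower and 1757 higher. LPS lowered 4995 and raised 2524 in WT, and lowered 6258 and raised 3130 in AhR-KO. DARs, which also pass the fold threshold, were fewer. Of the 15273 tested, 10856 (71.1%) were a DAR in none of the 5 comparisons, against 32.3% of all tested peaks, and at 8195 (53.7%) the 95% interval of the fold change stayed inside 1.5-fold in all 4 comparisons of groups. Between genotypes without LPS, 856 promoters were lower in AhR-KO and 469 higher, together 8.68% of those tested against 22.6% of all tested peaks (12.6% lower and 9.95% higher). With LPS, 1064 were lower and 400 higher, together 9.59% against 26.5% of all (13.1% lower, 13.4% higher). LPS lowered 1333 and raised 954 promoters in WT, or 15% against 47% of all (21.6% lower, 25.4% higher). In AhR-KO it lowered 2005 and raised 1030, or 19.9% against 48.8% of all (21.5% lower, 27.3% higher). The genotype effect itself differed between treatments (the interaction, the effect with LPS minus that without) at 461 lower and 239 higher promoters, 4.58% against 10.4% of all (4.58% lower, 5.83% higher). Lower DARs were thus 64.6%, 72.7%, 58.3%, 66.1% and 65.9% of promoter DARs in this order, and 56%, 49.4%, 46%, 44.1% and 44% of those of all peaks. The first and the last of these splits depended on the scaling of the libraries. With the size factors of DESeq2 in place of TMM the unstimulated genotype comparison gave 705 lower and 628 higher promoters, and the interaction 597 lower and 190 higher. At a threshold of 2-fold the majority turned in WT with LPS (474 lower and 530 higher) and in the interaction (95 lower and 100 higher).

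The size of the changes was small for most. The median log2 fold change of the promoters was -0.0111, -0.0319, -0.0673, -0.109 and -0.0457 in the same order, against -0.0212, 0.0211, -0.0141, 0.046 and 0.0392 over all tested peaks, and 468, 511, 1004, 1274 and 195 promoters were DARs of at least 2-fold. The 6 libraries of a group lay entirely above those of the other at 3934 promoters (25.8%) between genotypes without LPS, where the share over all tested peaks was 21%, and at 2071 (13.6%) with LPS, where it was 19.6%. Between treatments this held for 4057 promoters (26.6%) in WT against 38.7% of all, and for 5469 (35.8%) in AhR-KO against 45.6% of all.

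Which promoters changed followed their CpG class in these counts. Of the CpG-poor promoters, 20.5% and 21.6% were DARs between genotypes without and with LPS, and 39.8% and 43.5% between treatments in WT and AhR-KO, against 22.6%, 26.5%, 47% and 48.8% of all tested peaks. Of the CpG-rich promoters 3.8%, 4.61%, 5.43% and 10.6% were. The few CpG-rich DARs were mostly losses, with 245 lower against 111 higher between genotypes without LPS, 390 against 42 with LPS, 341 against 168 with LPS in WT and 801 against 188 with LPS in AhR-KO. Among CpG-poor promoters LPS lowered 766 and raised 659 in WT, and lowered 862 and raised 696 in AhR-KO. In the interaction 196 CpG-rich promoters were lower and 35 higher, while 193 CpG-poor ones were lower and 162 higher. The class moved with level, width and GC content, so what each contributed cannot be told apart from these counts. The tilt of libraries toward GC-rich peaks, given above, also differed between groups, and its part in the losses by class was not tested. With the GC offset, lower DARs were 57.7%, 69%, 53.6% and 60.4% of all promoter DARs in the 4 comparisons of groups. Without it they were 64.6%, 72.7%, 58.3% and 66.1%. In the interaction they were 66.9% with the offset and 65.9% without. Of the 5091 promoters with the highest level per kb, 1.16%, 0.962%, 2.81% and 6.48% were DARs in the 4 comparisons, while other peaks within that band of level reached 9.94%, 8.04%, 30% and 37.1%. Peaks that covered a TSS were DARs in 6.27%, 6.93%, 10.4% and 15.8%, and those beside one in 22.6%, 25%, 41.6% and 43.4%. Of the 1149 promoters with TSSs on both strands, DARs were 1.22%, 1.22%, 2.52% and 6.01%.

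**Figure D2:**
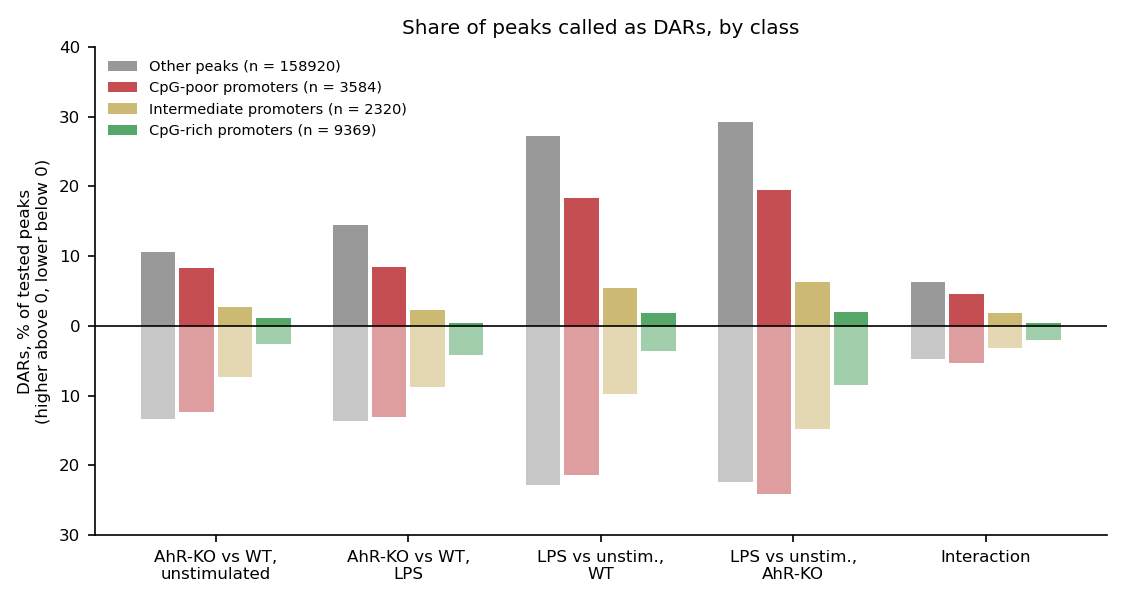
The vertical axis gives the percent of tested peaks that were DARs, higher above 0 and lower (paler) below 0, for peaks that are no promoter, CpG-poor, intermediate and CpG-rich promoters in the 5 comparisons. CpG-rich promoters have the shortest bars in all 5, for example 3.8% in total between genotypes without LPS against 20.5% of CpG-poor promoters.

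Loss of AhR without LPS. The promoter DAR with the smallest p was that of Ahrr, the AhR repressor, a textbook target of AhR (chr13:74291782-74292673, over the TSS). It held 9.52, 10.6 and 13.3 CPM in WT and 2.6, 3.23 and 4.13 CPM in AhR-KO, without overlap, a log2 fold change of -1.73 (SE 0.105, adjusted p = 6.91e-15). Larger changes were found at promoters that were nearly closed in AhR-KO. A CpG-poor TSS of Gtf2i, which encodes the general transcription factor II-I (chr5:134295253-134296556), held 3.84, 5.71 and 7.73 CPM in WT and 0.319, 0.558 and 0.763 CPM in AhR-KO, or -3.39 (SE 0.22, adjusted p = 6.43e-14). No AhR-KO library came near the lowest WT library. Chil5, of the chitinase-like proteins (chr3:106032699-106033069), held 1.63, 2.42 and 3.76 CPM in WT and 0, 0.132 and 0.176 CPM in AhR-KO, at -4.36 (SE 0.297, adjusted p = 7.99e-14). The peak beside a TSS of Gpr161, an orphan receptor of the primary cilium, went the same way at -2.95 (SE 0.2, adjusted p = 7.04e-14), and that beside Fam167a was at -3.24 (SE 0.229, adjusted p = 1.77e-13).

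In the other direction, Pgap2, which acts in the maturation of GPI anchors (chr7:102229622-102231866, a CpG-poor TSS), rose from 5.03, 5.64 and 6.86 CPM in WT to 15.2, 16.8 and 21.4 CPM in AhR-KO, or 1.60 (SE 0.105, adjusted p = 6.52e-14). It was higher in AhR-KO with LPS as well, at 1.16. Wnt1, a secreted Wnt ligand (chr15:98789027-98790174), held 14.7, 16 and 17.2 CPM in WT and 29, 34.1 and 38.5 CPM in AhR-KO, at 1.09 (SE 0.0836, adjusted p = 1.14e-12), and with LPS WT and AhR-KO held 9.71 to 13.6 CPM and 12 to 16.6 CPM. In all 6 unstimulated AhR-KO libraries this promoter was above every other library of the study. The other leading gains were Als2cr12 (1.36), Ang2, a ribonuclease of the angiogenin family whose members are alike enough to share reads (1.45), and Vill, a villin-like actin-binding protein (1.59).

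Gene groups moved unevenly without LPS. The counts of the lists stand against 12.6% lower and 9.95% higher DARs among all tested peaks, and 5.6% and 3.07% among all tested promoters, and the lists were chosen with results known. Of 11 AhR target genes with a tested promoter (12 in the list), 2 fell: Ahrr and Cyp1b1 (a cytochrome P450, -0.96). These were 18.2%, and the median over the list was -0.171 against -0.0212 over all tested peaks. Of 33 cytokine and chemokine promoters 3 fell, Csf2 (-0.99), Il12b (-0.64) and Cxcl2 (-0.64), and 5 rose, Il6 (0.64), Il1a (0.66), Il1b (0.66), Ccl17 (0.77) and Ccl22 (0.79), or 9.09% and 15.2%, with a median of 0.0297. Ccl17 and Ccl22 encode chemokines that bind CCR4. Il12b and Cxcl2 were short of the fold threshold with the size factors of DESeq2. Among 25 promoters of alveolar macrophage identity 6 rose, Cebpb (0.59), Car4 (0.61), Fabp4 (0.62), Itgax (0.72), Ctsk (0.92) and Marco (0.94), or 24%, and the list median was 0.411. The summed level of the macrophage markers was likewise 202 to 220 CPM per kb in WT and 230 to 292 in AhR-KO. Of 40 interferon-stimulated genes 2 fell (5%, under the share of all peaks and near that of all promoters), Oasl2 (-0.74) and Rsad2 (-0.71), and the median was -0.13. Rsad2 lies within 20 Mb of Ahr on chromosome 12. In the eicosanoid pathway 3 of 16 promoters fell (18.8%), Ptgs1 (-0.79), Hpgds (-0.63) and Ptgs2 (-0.61), which encode cyclooxygenase 1, hematopoietic prostaglandin D synthase and cyclooxygenase 2. With DESeq2's size factors only Ptgs1 of them remained a DAR.

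Smaller groups gave few calls without LPS. Of 48 macrophage transcription factors 3 rose, Cebpb (0.59), Stat5a (0.59) and Batf2 (0.81), of which Cebpb and Stat5a were lost with the replicate number as a block. Of 32 proteasome subunits 2 rose, Psmb6 (0.61) and Psmd1 (0.65), of 30 genes of RNA polymerase II and its general factors Polr2e rose (0.96), of 21 glycolysis and itaconate genes Aldoa (0.61), and of 15 retinoid and TGF-β genes Rarg (0.64). Polr2e, a subunit shared by the nuclear RNA polymerases, held 7.44, 8.63 and 9.37 CPM in WT and 14.9, 17.1 and 18.6 CPM in AhR-KO. Of 28 tested markers of other cell types 7 (25%) were DARs, against 22.6% of all tested peaks and 8.68% of all tested promoters, and these were lower in AhR-KO, among them Kit (-1.21), Flt3 of dendritic cell precursors (-1.16), S100a9 (-1.35), Retnlg (-1.40) and Ltf (-0.93) of neutrophils, and Prf1 of NK cells (-1.85). Not every member of these lists was lower. The log2 fold changes ran from -1.85 to 0.414 in the NK cell list and from -1.4 to 0.249 in the neutrophil list. In the dendritic cell list they ran from -1.16 to 0.209.

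**Figure D3:**
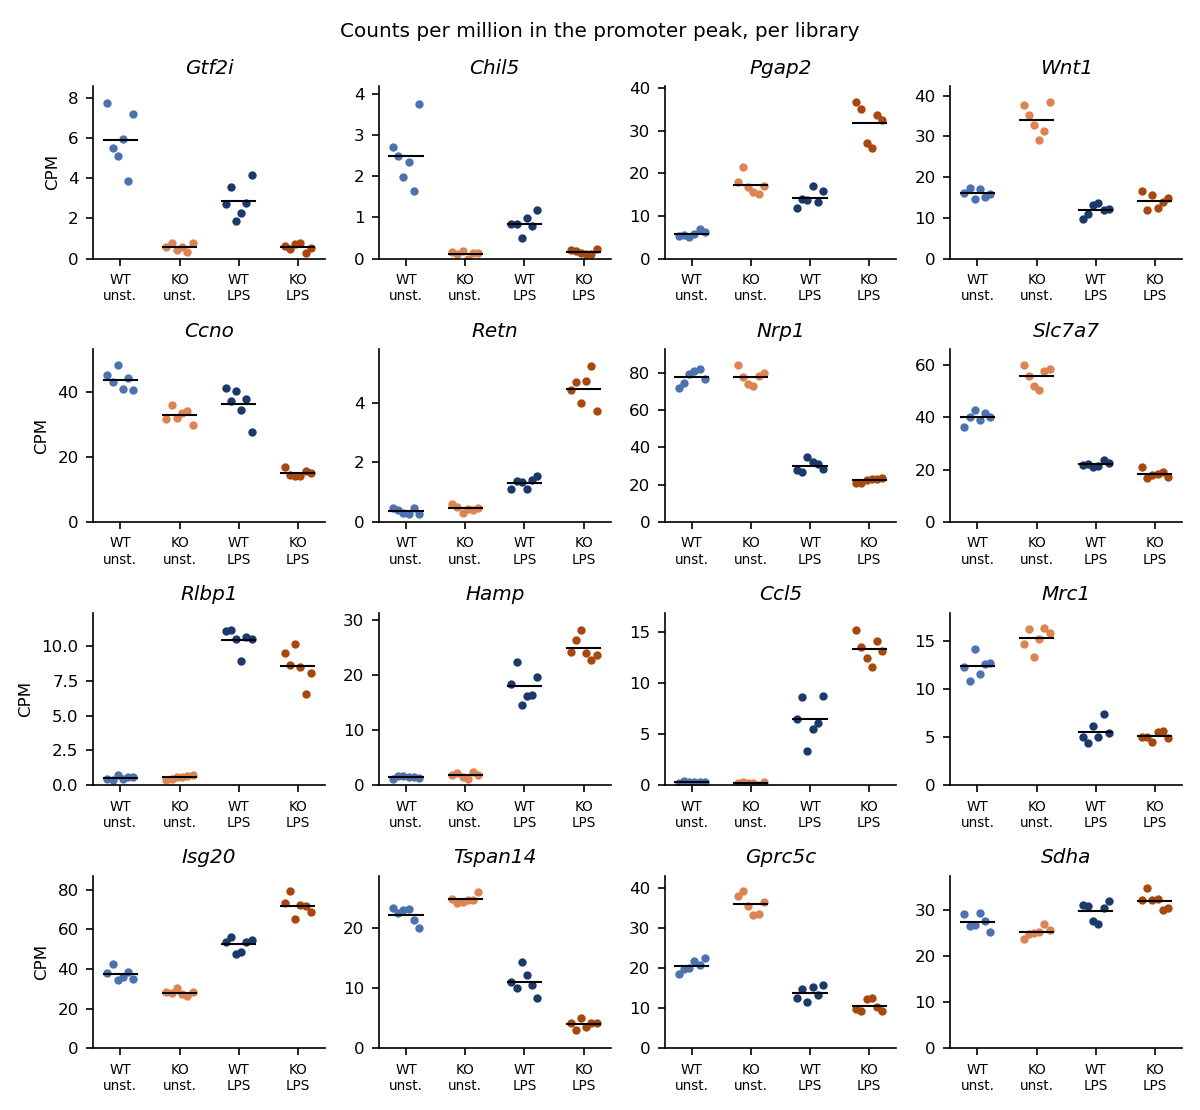
Each point is the CPM of 1 library in the promoter peak named above the panel, the bar is the mean of the 6 libraries, and each vertical axis starts at 0 with its own scale; blue is WT, orange AhR-KO, and darker points are with LPS. Gtf2i and Chil5 are lower in AhR-KO with and without LPS, Wnt1 and Gprc5c are highest in AhR-KO unstimulated, Rlbp1, Hamp and Ccl5 do not exceed 2.42 CPM without LPS, and Sdha, a CpG island promoter, stays between 23.7 and 34.8 CPM in all 24 libraries.

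Loss of AhR with LPS. Ahrr was again the lower DAR with the smallest p, with 10.1, 11 and 12.8 CPM in WT LPS and 2.04, 2.38 and 2.51 CPM in AhR-KO LPS, or -2.27 (SE 0.105, adjusted p = 5.72e-18). The next losses were CpG-rich. Ccno, an atypical cyclin of multiciliated cells (chr13:112987370-112988389), held 27.7, 37.3 and 41.2 CPM in WT and 14, 14.8 and 16.7 CPM in AhR-KO, at -1.28 (SE 0.0727, adjusted p = 1.58e-15). Without LPS the same promoter held 40.4 to 48.3 CPM in WT and 29.6 to 35.8 CPM in AhR-KO, so that AhR-KO was lower in both treatments. Fli1, an ETS transcription factor of blood cells (chr9:32539259-32541476), held 32.8, 42.2 and 43.8 CPM in WT and 19.3, 20.5 and 22.3 CPM in AhR-KO, at -0.96 (SE 0.0596, adjusted p = 1.37e-14), in a peak beside and not over the TSS. Phactr2, a regulator of phosphatase and actin, was at -1.15 and Pknox2, a homeobox factor, at -1.49.

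Among the gains, the peak beside the TSS of Retn, which encodes resistin, a secreted cysteine-rich protein (chr8:3654855-3655219), held 1.11, 1.36 and 1.53 CPM in WT LPS and 3.73, 4.55 and 5.21 CPM in AhR-KO LPS, at 1.76 (SE 0.13, adjusted p = 6.4e-13). No unstimulated library exceeded 0.59 CPM. Atp13a4, a P5-type ATPase, rose by 1.71, Phldb1 by 1.45 and Cgref1 by 0.78 on the log2 scale. Ccl5, a chemokine for T cells and monocytes, was the only cytokine promoter of 33 that rose. It held 3.33, 6.3 and 8.7 CPM in WT LPS and 11.6, 13.3 and 15.2 CPM in AhR-KO LPS, without overlap, at 1.05 (SE 0.153, adjusted p = 1.67e-06).

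With LPS the lists stand against 13.1% lower and 13.4% higher DARs among all tested peaks, and 6.97% and 2.62% among all tested promoters. Of the shares of the lists in either direction, those of the AhR targets (18.2%) and of the markers of other cells (25%) that fell were over the share of all peaks. Those of the other lists named here were under it. Ahrr and Cyp1b1 (-1.03) were the AhR targets that fell with LPS, as without it, and Gsta1, a glutathione transferase with close paralogs, rose (0.74). Of 16 eicosanoid promoters Alox5 (5-lipoxygenase) fell (-0.77) and Hpgd, which inactivates prostaglandins, rose (0.71). Among the macrophage receptors Cx3cr1 fell (-1.04). Myc was the member of 36 cell cycle promoters that fell (-1.01), and Cebpd that of 48 transcription factors (-0.65). Of 25 alveolar identity promoters Fabp4 rose (0.73), and of 40 interferon-stimulated ones Ifi44 (0.66). List medians were 0.163 for interferon-stimulated genes and 0.08 for alveolar identity, against 0.0211 over all tested peaks. Of the 28 markers of other cells 7 (25%) were lower DARs, among them Kit (-1.24), Flt3 (-1.29), Ccr7 of mature dendritic cells (-1.53), S100a9 (-1.11), Retnlg (-0.74) and Prf1 (-0.83), and Ms4a1 of B cells was higher (0.76). The log2 fold changes ran from -0.829 to 0.398 in the NK cell list and from -1.11 to 0.254 in the neutrophil list. In the B cell list they ran from -0.949 to 0.76.

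The genotype DARs of both treatments, which come from separate libraries, overlapped in part. Lower in both were 510 promoters, 59.6% of those lower without LPS and 47.9% of those lower with LPS. Higher in both were 156, which is 33.3% and 39% of the respective lists. Opposite calls were made at 8 promoters, those of Fam184a (-0.91 without and 1.58 with LPS on the log2 scale), Rnf213, Gm2310, Rps14, Camk2a, Vmn1r77, Olfr640 and Zbtb38, named here after their values were seen. The peak of Rps14 was not the one counted among the ribosomal protein promoters. Within 20 Mb of Ahr on chromosome 12, where an AhR-KO mouse can carry DNA of the strain in which the allele was made, 7 of 116 promoters were lower and 2 higher without LPS, whereas with it 9 were lower and 3 higher, or 7.76% and 10.3% against 8.68% and 9.58% elsewhere.

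LPS in WT. The lower DARs with the smallest p were at Nrp1, a co-receptor for semaphorins and VEGF (chr8:128356750-128359834, CpG-rich), which held 72.1, 78.3 and 82.1 CPM without and 26.6, 29.7 and 35 CPM with LPS, at -1.36 (SE 0.058, adjusted p = 4.82e-21). The lowest unstimulated library was above the highest LPS library. Gsc, a homeobox gene (chr12:104471285-104473452, CpG-rich), held 25.1, 27.9 and 32 CPM without and 7.69, 8.24 and 10.8 CPM with LPS, at -1.67 (SE 0.0742, adjusted p = 1.71e-20). Eef2k, the kinase of elongation factor eEF2, was at -1.34 (SE 0.0602, adjusted p = 2.19e-20), Bank1, a scaffold protein of B cell signalling, at -1.59, and a peak beside the TSS of Ccr2, the monocyte receptor for CCL2, at -2.05.

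The leading gains with LPS in WT were at CpG-poor or intermediate promoters. Traf1, an NF-kB target that binds TNF receptor complexes (chr2:34957066-34958970), rose from 6.83, 7.72 and 8.25 CPM to 29.9, 32.3 and 34.2 CPM, or 2.07 (SE 0.0718, adjusted p = 1.51e-23). Rlbp1, a retinaldehyde-binding protein (chr7:79386910-79387656), rose from 0.349, 0.522 and 0.75 CPM to 8.96, 10.6 and 11.2 CPM, or 4.32 (SE 0.154, adjusted p = 3.38e-23). Hamp, which encodes the iron hormone hepcidin and whose sequence is printed above with an AP-1 site (chr7:30943936-30945005), rose from 1.19, 1.48 and 1.59 CPM to 14.5, 17.4 and 22.5 CPM, or 3.62 (SE 0.131, adjusted p = 4.69e-23). In each of these genes all LPS libraries were above all unstimulated ones. The peak beside a TSS of Aebp2, a cofactor of the Polycomb repressive complex, rose by 2.01 and a CpG-poor TSS of Clec16a, which acts in autophagy, by 4.26 on the log2 scale.

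Of the 33 cytokine and chemokine promoters 17 rose and 3 fell with LPS in WT, with a median log2 fold change of 0.613 against -0.0141 over all tested peaks. These were 51.5% higher and 9.09% lower, against 25.4% and 21.6% of all tested peaks and 6.25% and 8.73% of all tested promoters. Ccl5 changed the most, from 0.198, 0.31 and 0.436 CPM to 3.33, 6.3 and 8.7 CPM, at 4.34 (SE 0.265, adjusted p = 5.98e-15). Then came Il1b (1.96), Ccl22 (1.91), Cxcl16 (1.71), Il12a (1.70), Csf3 (1.58), Cxcl3 (1.55) and Cxcl9 (1.47), and Il6 (1.17), Csf2 (1.07), Cxcl10 (0.95), Cxcl1 (0.94), Ccl4 (0.86), Il27 (0.82), Il1a (0.73), Il23a (0.68) and Tnfsf9 (0.61) were closer to the fold threshold. Cxcl3, a neutrophil chemokine with the NF-kB run shown above, held 8.87, 10.3 and 12.9 CPM without and 26.4, 30.6 and 33.8 CPM with LPS. The promoters that fell were those of Ccl2 (-0.86) and Ccl7 (-0.67), which encode monocyte chemokines, and of Il10 (-0.61), an anti-inflammatory cytokine. Of the 40 interferon-stimulated genes 7 rose, Oasl1 (1.28), Ifit3 (1.22), Ifi44 (1.21), Ifit1 (0.96), Rsad2 (0.81), Isg15 (0.80) and Oasl2 (0.69). These 17.5% were under the 25.4% of all tested peaks and over the 6.25% of all tested promoters, at a median of 0.198, where reads of Ifit3 and Ifit1 may be shared with near-identical copies. With an offset for GC content 10 rose. Of 34 genes of the NF-kB pathway and its feedback 4 rose, Traf1 (2.07), Tnip3 (0.64), Socs1 (0.61) and Nfkbie (0.60), and most of the others, such as Nfkbia and Tnfaip3 (0.38 and 0.20), were not DARs at the promoter peak over the TSS.

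Of the 25 promoters of alveolar macrophage identity 10 fell with LPS in WT and none rose, while 15 were not called. The lower ones were 40%, against 21.6% of all tested peaks and 8.73% of all tested promoters. They were Plet1 (-1.42), Cidec (-1.39), Ear1 (-1.22), Mrc1 (-1.15), Ear2 (-1.0), Siglecf (-0.88), Cd36 (-0.74), Bhlhe41 (-0.69), Marco (-0.68) and Chil3 (-0.67), and the log2 fold changes of the list ran from -1.42 to 0.365 with a median of -0.502. Mrc1, the mannose receptor, whose promoter sequence is shown above, held 10.8, 12.5 and 14.1 CPM without and 4.39, 5.21 and 7.42 CPM with LPS. Ear1 and Ear2 are close paralogs, so their reads may be shared. Of 30 macrophage receptors 6 (20%) fell, among them Tlr5 (-0.94), Axl (-0.72), Ccr1 (-0.62) and Mertk (-0.60) with the Ccr2 peak over its TSS (-2.65), and Csf1r rose (0.66). In the eicosanoid pathway 5 of 16 (31.2%) fell, Ptgs1 (-1.05), Alox5 (-0.97), Hpgd (-0.83), Alox5ap (-0.76) and Ltc4s (-0.70), and 3 (18.8%) rose, Ptges (1.57), Ptgs2 (0.96) and Alox12 (0.70). The lower ones act in leukotriene synthesis (Alox5, Alox5ap and Ltc4s), constitutive prostanoid synthesis and prostaglandin breakdown, and the higher ones include the inducible enzymes of prostaglandin E2 synthesis. Of all tested peaks 21.6% fell and 25.4% rose, so the share of this pathway that rose was under that of all peaks. Of all tested promoters 8.73% fell and 6.25% rose.

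Other groups changed at few promoters in WT, in each direction at under the share of all tested peaks. Cell cycle promoters that fell were Myc (-1.02), Ccnd1 (-0.80), E2f2 (-0.72) and Tyms (-0.62), of 36. Among transcription factors Cebpe (-0.92) and Tfec (-0.69) fell and Batf2 (1.51) and Fosl1 (0.68) rose. In metabolism Acod1, which makes itaconate, and Nos2, which makes nitric oxide, rose (1.58 and 0.93). Acod1 held 8.07, 10.3 and 12.2 CPM without and 26.5, 30.5 and 33.7 CPM with LPS. Of 13 MHC class II promoters H2-Oa (1.07) and Cd40 (1.07) rose. Of the AhR targets Aldh3a1 fell (-0.73) and Gsta1 rose (2.03). Of the retinoid and TGF-β genes Dhrs3 fell (-0.86) and Tgm2 rose (0.70).

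LPS in AhR-KO. The 2005 promoters that fell stood against 1333 in WT, and the interaction, which tests the difference at each promoter, was lower at 461 and higher at 239. Total counts were 18.9 to 25.7 M without and 22.4 to 28.5 M with LPS. With an offset for GC content 1701 fell in AhR-KO and 1208 in WT. Of the leading losses, Gsc (-2.80), Bank1 (-2.48) and Nrp1 (-1.80) were those of WT as well. Slc7a7, a transporter of cationic amino acids (chr14:54408439-54410856, CpG-poor), held 50.4, 56.9 and 60.2 CPM without and 16.9, 18 and 21 CPM with LPS, at -1.60 (SE 0.0584, adjusted p = 2.55e-23). Ffar2, a receptor for short-chain fatty acids (chr7:30819963-30822051), held 23, 29.3 and 34.5 CPM without and 5.06, 5.37 and 5.97 CPM with LPS, at -2.38 (SE 0.0786, adjusted p = 1.55e-24). Both promoters had also fallen in WT, by 0.86 and 1.51 on the log2 scale.

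Of the leading gains in AhR-KO, Aebp2 (2.25) and Hamp (3.80) led in WT too. Serpinb2, plasminogen activator inhibitor 2 (chr1:107511067-107511692), held 1.18, 1.5 and 2.11 CPM without and 20.8, 24 and 25.4 CPM with LPS, at 3.90 (SE 0.125, adjusted p = 7.82e-25). Ms4a6d, a membrane-spanning 4A protein, was at 5.49 and Il12a, the smaller subunit of IL-12, at 2.07. The DARs of both genotypes, which come from separate libraries, shared 961 lower promoters (72.1% of those of WT and 47.9% of those of AhR-KO) and 715 higher ones (74.9% and 69.4%). At 6 promoters the direction was opposite, Ripk4, Olfr979 and Insyn1 higher in WT and lower in AhR-KO, and Znfx1, Cftr and Vmn1r77 the other way round. These were named after their values were seen.

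Interferon-stimulated promoters gave 16 gains of 40 (40%) in AhR-KO, against 27.3% of all tested peaks and 6.74% of all tested promoters, with a median of 0.47 against 0.046 over all tested peaks. The largest were Ifi44 (2.37), Oasl1 (2.12), Rsad2 (1.73), Ifit3 (1.68), Oasl2 (1.65), Ifit1 (1.57), Isg20 (1.36), Rtp4 (1.18) and Isg15 (1.16), and Zbp1 (0.93), Ddx58 (0.85), Parp14 (0.84), Irf7 (0.75), Herc6 (0.62), Usp18 (0.60) and Gbp5 (0.59) followed. Gbp5, Herc6 and Usp18 were short of the fold threshold with DESeq2's size factors. Rsad2, which encodes the antiviral enzyme viperin, held 5.14, 6.07 and 7.95 CPM without and 19.5, 21.1 and 22 CPM with LPS in AhR-KO. Ifit3, the promoter with the ISRE runs printed above, held 4.49, 5.08 and 6.28 CPM without and 14.1, 17 and 19.1 CPM with LPS. The groups did not overlap at either gene.

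Of the 33 cytokine promoters 16 (48.5%) rose and Ccl2 fell (-0.61), at a median of 0.53. Ccl5 went from 0, 0.206 and 0.339 CPM to 11.6, 13.3 and 15.2 CPM, at 5.97 (SE 0.257, adjusted p = 5.78e-19), followed by Il12a (2.07), Csf3 (2.05) and Csf2 (1.91), which encode a subunit of IL-12, G-CSF and GM-CSF. Of alveolar identity promoters 15 of 25 (60%) fell, against 21.5% of all tested peaks and 13.1% of all tested promoters, led by Cidec (-1.97), Ear1 (-1.91), Plet1 (-1.72), Ear2 (-1.67), Mrc1 (-1.59), Siglecf (-1.23), Ctsk (-1.12) and Marco (-1.10), with a median of -0.711. Cidec, a lipid droplet protein, held 13.3, 16 and 17.7 CPM without and 3.09, 4.12 and 4.74 CPM with LPS. Eicosanoid promoters fell at Ltc4s (-1.20), Alox5 (-1.18), Alox5ap (-0.87), Ptgr1 (-0.77), Lta4h (-0.63) and Ptgs1 (-0.61) and rose at Ptgs2 (1.62), Ptges (1.07) and Alox12 (0.71). Of the 16 tested in this pathway, 6 (37.5%) thus fell and 3 (18.8%) rose, against 21.5% and 27.3% of all tested peaks. Of all tested promoters 13.1% fell and 6.74% rose. Of 34 NF-kB pathway promoters Traf1 rose (2.11), and 4 rose with the GC offset. MHC class II promoters fell at H2-DMb2 (-0.93), Ciita (-0.92) and H2-Aa (-0.67) and rose at Cd40 (1.19) and H2-Oa (0.70), where Ciita encodes the transactivator of these genes. Of the 13 tested in this list, 3 (23.1%) thus fell, near the 21.5% of all tested peaks and over the 13.1% of all tested promoters. The 2 (15.4%) that rose were under the 27.3% of all tested peaks and over the 6.74% of all tested promoters.

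In further lists the share in either direction was under that of all tested peaks. Among transcription factors 8 of 48 fell with LPS in AhR-KO, among them Tfec (-1.30), Rxra (-0.98), Cebpd (-0.88), Cebpe (-0.81), Irf8 (-0.77), Id2 (-0.75) and Cebpb (-0.71), and Fosl1 (1.03) and Batf2 (0.96) rose. Receptors that fell were Csf2rb (-0.98), Axl (-0.95), Mertk (-0.81), Tgfbr2 (-0.80) and Tlr5 (-0.60) and the Ccr2 peak over its TSS (-2.99), and Clec4e (0.88) and Csf1r (0.67) rose. Cell cycle promoters fell at Myc (-1.71), E2f2 (-0.84), Mcm7 (-0.69), Rrm2 (-0.61) and Ccnd1 (-0.60) and rose at Ccnd2 (0.65). Myc held 30.8, 33.4 and 35.1 CPM without and 9.24, 9.88 and 12.1 CPM with LPS. Of 22 cholesterol promoters 4 fell, among them Srebf2 (-0.72) and Nr1h3 (-0.63). Glycolysis and itaconate genes rose at Acod1 (1.88), Nos2 (1.21) and Arg2 (0.80), and AhR targets moved at Aldh3a1 (-1.30) and Gsta1 (2.97). Retinoid and TGF-β genes fell at Dhrs3 (-1.34), Tgfbi (-1.22) and Ski (-0.80), lysosomal genes at Ctsa (-0.76) and Tfeb (-0.61), and RNA polymerase II and general factor genes at Polr2e (-0.82), Polr2l (-0.71) and Gtf2h4 (-0.67). With an offset for GC content, Cebpb, Tlr5, Rrm2, Ccnd1, Nr1h3, Lta4h, Ptgs1, Ccl2, Tfeb, Polr2l and Gbp5 kept their direction but were under the fold threshold.

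**Figure D4:**
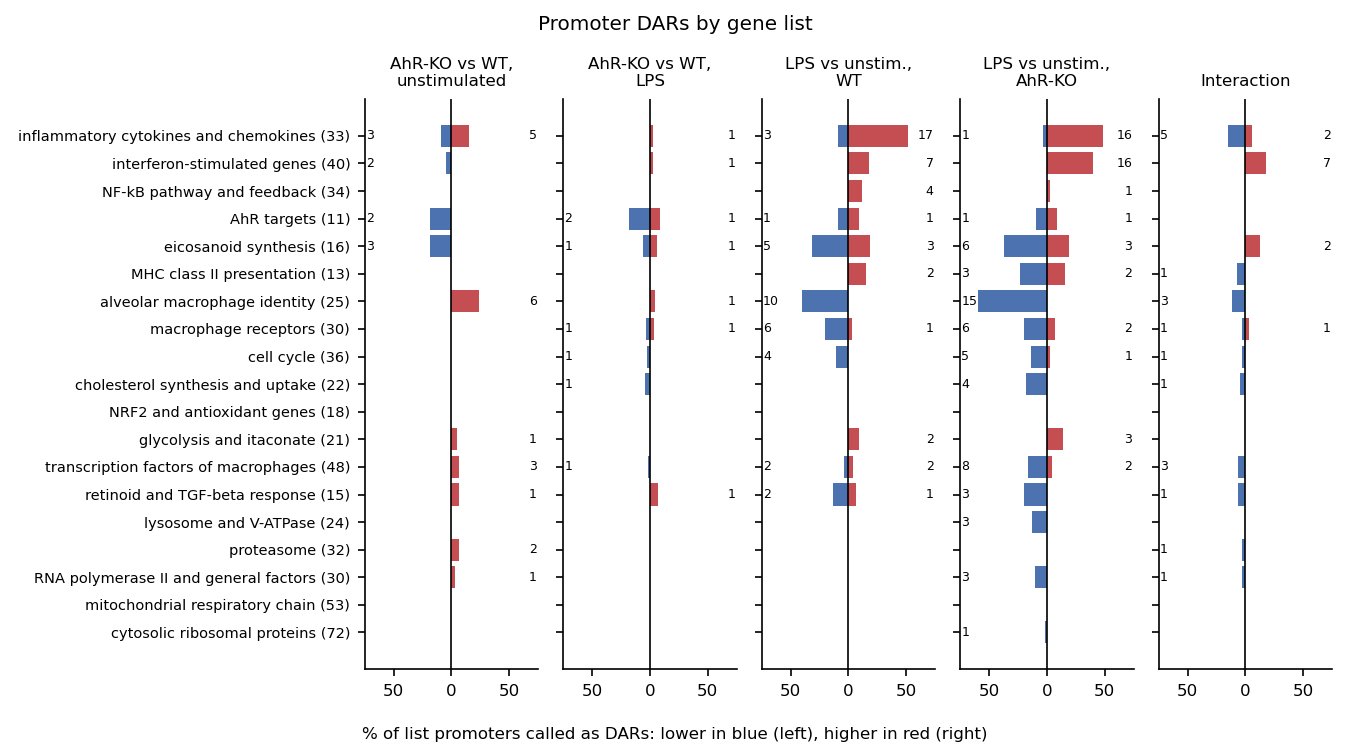
For each gene list (number of genes with a tested promoter in parentheses) bars give the percent of list promoters that were DARs, lower in blue to the left and higher in red to the right, with the counts at the panel edges, in the 5 comparisons. With LPS in WT and in AhR-KO, 17 and 16 of 33 cytokine promoters are higher and 3 and 1 lower, 10 and 15 of 25 alveolar identity promoters are lower and none higher, and the lists of respiratory chain and NRF2 genes have no bar.

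Where the genotype effect depended on LPS. The interaction was lower, with the smallest p, at a peak beside a TSS of Tspan14, a tetraspanin that binds the protease ADAM10 (chr14:40933046-40933760). It held 20.1, 22.9 and 23.4 CPM in WT unstimulated and 24.3, 24.8 and 26 CPM in AhR-KO unstimulated. With LPS it held 8.41, 10.8 and 14.4 CPM in WT and 3.13, 4.22 and 5.01 CPM in AhR-KO, and the interaction was -1.61 (SE 0.133, adjusted p = 3.96e-10). AhR-KO was thus above WT without LPS and below it with LPS, and the groups overlapped in neither case. Gprc5c, an orphan receptor inducible by retinoic acid (chr11:114850710-114853363, CpG-rich), held medians of 20.5 CPM in WT and 36 CPM in AhR-KO without LPS, and 14.1 and 10.1 CPM with it, at -1.19 (SE 0.111, adjusted p = 3.79e-09). Snx24, a sorting nexin, was at -1.0 (SE 0.097, adjusted p = 8.57e-09), Gsc at -1.13 and Slc12a7, a potassium-chloride cotransporter, at -0.78.

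The interaction was higher at Isg20, an interferon-induced exonuclease (chr7:78911634-78915232), which held 34.7, 36.9 and 42.5 CPM in WT unstimulated and 26.4, 28 and 30.2 CPM in AhR-KO unstimulated. With LPS it held 47.5, 53.7 and 56.3 CPM in WT and 65.1, 72.1 and 79.5 CPM in AhR-KO, so that AhR-KO was below WT without and above it with LPS, and the interaction was 0.87 (SE 0.0804, adjusted p = 3.36e-09). Tjp1, the tight junction protein ZO-1, was at 1.16, Hif3a, a hypoxia-inducible factor, at 2.08, Glt28d2, which has a close paralog, at 0.85, and Met, the receptor of hepatocyte growth factor, at 0.67. Of the 40 interferon-stimulated promoters 7 had a higher interaction, Isg20 with Ifi44 (1.16), Oasl2 (0.96), Rsad2 (0.92), Oasl1 (0.84), Rtp4 (0.72) and Ifit1 (0.61). These were 17.5%, against 5.83% of all tested peaks and 1.56% of all tested promoters, and the median over the list was 0.273 against 0.0392 over all tested peaks. Ifit1 was under the fold threshold with DESeq2's size factors and with the GC offset. Of 33 cytokine promoters 5 were lower, Ccl17 (-0.96), Ccl22 (-0.87), Il1a (-0.77), Il6 (-0.64) and Il1b (-0.60), and 2 higher, Ccl5 (1.64) and Csf2 (0.84), or 15.2% and 6.06%, against 4.58% lower and 5.83% higher of all tested peaks. Alveolar identity genes were lower at Ear2 (-0.67), Fabp5 (-0.63) and Ctsk (-0.61), and transcription factors at Rxra (-0.74), Irf8 (-0.62) and Tfec (-0.62). Eicosanoid genes were higher at Hpgd (0.64) and Ptgs2 (0.66). Further list members called were Csf2rb (-0.69), H2-Aa (-0.59), Myc (-0.69), Tgfbi (-1.0), Psmb6 (-0.68) and Polr2e (-0.78), all lower. H2-Aa was under the fold threshold without WT unstimulated replicate 5 (-0.57).

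Some promoters were called in all 6 libraries of a group and in none of the other. Without LPS, 14 promoters (0.0905%, against 0.361% of all consensus peaks) were called in all WT and no AhR-KO libraries, among them Gtf2i, Gpr161 and a peak near a TSS of Ank2, and 17 (0.11% against 0.413%) in all AhR-KO and no WT libraries, among them Rab4a. With LPS, 65 (0.42% against 0.948%) were called in WT alone, among them Hemgn, Nckap5 and Cd96, and 12 (0.0776% against 0.357%) in AhR-KO alone, among them peaks near TSSs of Zbtb46, Cyp26b1 and Nos2. LPS closed 12 promoters by this measure in WT (0.0776% against 0.387%), among them Rnh1 and Pvrig, and opened 134 (0.866% against 4.15%), of which 113 were CpG-poor and 9 CpG-rich. They included Rlbp1, Ms4a6d, Apcs, Serpinb2, Ccr9 and peaks near TSSs of Tnfaip3 and Il1rn. In AhR-KO LPS closed 75 (0.485% against 1.28%), among them Rnh1, Cant1 and Plet1, and opened 127 (0.821% against 4.35%), of which 106 were CpG-poor and 8 CpG-rich. Calls depend on depth, which was lowest in WT unstimulated (8.54 to 23.1 M) and highest in WT LPS (25.1 to 34.6 M), and its part was not tested. Of these sets 13, 15, 59, 12, 12, 128, 71 and 123 promoters, in the order given, were also DARs in the same comparison, counted in either direction. The examples were picked after their values were seen from among the members of each set with the smallest p, and others with as small a p are not named.

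Genes with several promoter peaks could change at one of them alone. A gene with more peaks has more chances of a call, so the gene counts below are not shares of peaks. Of single promoter peaks, DARs were 8.68%, 9.59%, 15%, 19.9% and 4.58% in the 5 comparisons, and of all tested peaks 22.6%, 26.5%, 47%, 48.8% and 10.4%. Of the 1633 genes with 2 or more tested promoter peaks, 432 and 436 had a DAR between genotypes without and with LPS, 759 and 847 between treatments in WT and AhR-KO, and 228 in the interaction. In these comparisons 13, 10, 46, 54 and 4 genes had DARs in opposite directions, and 61, 69, 125, 181 and 17 had 2 or more DARs of the same direction. At Ank2, which encodes ankyrin B, a peak near a TSS (chr3:127226108-127226664) fell from a mean of 7.24 CPM in WT unstimulated to 0.901 CPM in AhR-KO unstimulated (log2 fold change -3.03, adjusted p = 1.38e-12). Another one, 182604 bases away, rose from 9.54 to 15.3 CPM (0.68, adjusted p = 5.59e-07). At Hamp the peak described above rose with LPS in AhR-KO from a mean of 1.8 to 24.9 CPM (3.80), while a peak 1802 bases away (chr7:30942182-30943155) fell from 8.2 to 3.88 CPM (-1.08, adjusted p = 7.68e-12). In the same comparison Clec16a rose at the peak 10599964-10600973 of chromosome 16 from 1.47 to 19.9 CPM (3.74) and fell at a peak 54002 bases away from 5.45 to 2.5 CPM (-1.12). Cant1, a calcium-activated nucleotidase, did so in both genotypes: in WT its peaks changed by 1.78 and -1.43 and in AhR-KO by 1.83 and -2.27, 1157 bases apart. Whether peaks as near as those of Hamp and Cant1 belong to separate promoters or flank the same one was not tested. Pde4b, a phosphodiesterase of cyclic AMP, held opposite calls in WT (2.18 and -1.07). In the interaction the opposite calls were those of Ccdc162, Pdlim4, Cd226 and Cd47, of which Pdlim4 was no DAR with DESeq2's size factors and Cd226 none without WT unstimulated replicate 5 or with the GC offset at one of its peaks. For Radil, the higher call between genotypes without LPS (0.60) was short of the threshold without that library (0.55).

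**Figure D5:**
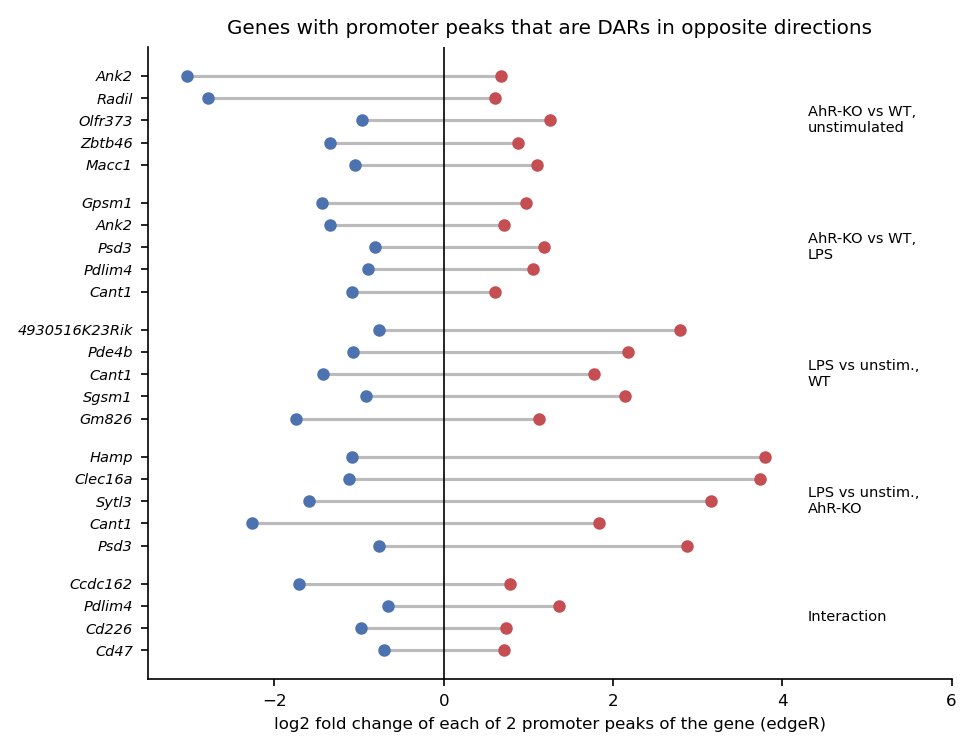
Each line joins 2 promoter peaks of a gene that were DARs in opposite directions in the comparison named at the right, with the higher in red and the lower in blue, and the horizontal axis is the log2 fold change from edgeR. The widest gaps are those of Hamp (3.80 and -1.08) and Clec16a (3.74 and -1.12) with LPS in AhR-KO.

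The respiratory chain, NRF2 and ribosomal protein lists had no or few promoter DARs. Of the 53 respiratory chain promoters 49 were CpG-rich. In that class 3.8%, 4.61%, 5.43%, 10.6% and 2.47% were DARs in the 5 comparisons, so few calls were to be expected. Other housekeeping lists did have calls, such as 2 of 32 proteasome promoters between genotypes without LPS and 3 of 30 of RNA polymerase II with LPS in AhR-KO. None of 53 respiratory chain promoters was a DAR in any of the 5 comparisons with edgeR, nor with DESeq2, although 32, 8, 14, 30 and 18 had an unadjusted p under 0.05, so that small shifts were detectable. Their log2 fold changes ran from -0.33 to 0.509 between genotypes without LPS and from -0.454 to 0.48 with LPS in AhR-KO. Sdha, a subunit of succinate dehydrogenase whose CpG island is printed above (chr13:74349660-74350775), held 25.3, 27.3 and 29.3 CPM in WT unstimulated and 23.7, 25.2 and 27 CPM in AhR-KO unstimulated. With LPS it held 27, 30.8 and 32.1 CPM in WT and 30, 32.3 and 34.8 CPM in AhR-KO. In AhR-KO its increase with LPS was 0.34 (SE 0.0559, adjusted p = 1.49e-06), past the adjusted p but under the fold threshold. Of 18 NRF2 and antioxidant promoters none was a DAR in the 5 comparisons with edgeR or DESeq2, with 3, 7, 6, 11 and 3 at an unadjusted p under 0.05. Of 72 ribosomal protein promoters, 70 of them CpG-rich, 1 was lower with LPS in AhR-KO. In the other 4 comparisons none was called by edgeR, against 39, 5, 24 and 32 at an unadjusted p under 0.05, while DESeq2 called 1 lower in the interaction.

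Further lists had no promoter DAR by edgeR in some comparisons, with members at an unadjusted p under 0.05 as follows. Without LPS these were, between genotypes, the NF-kB pathway (17 of 34), MHC class II (7 of 13), macrophage receptors (18 of 30), the cell cycle (18 of 36), cholesterol (15 of 22) and the lysosome (17 of 24). With LPS they were the NF-kB pathway (14 of 34), MHC class II (4 of 13), glycolysis and itaconate (13 of 21), the lysosome (8 of 24), the proteasome (6 of 32) and RNA polymerase II (6 of 30). Between treatments they were, in WT, cholesterol (14 of 22), the lysosome (13 of 24), the proteasome (11 of 32) and RNA polymerase II (14 of 30), and in AhR-KO the proteasome (18 of 32). In the interaction they were the NF-kB pathway (13 of 34), glycolysis and itaconate (9 of 21), the lysosome (6 of 24) and the AhR targets (4 of 11). DESeq2 made no call in these lists and comparisons either, apart from 1 lysosomal promoter higher in AhR-KO without LPS and 1 AhR target with a lower interaction. No share of all promoters at an unadjusted p under 0.05 is given here. The list counts at that p, here and in the preceding paragraph, therefore do not set a list apart. By edgeR's adjusted p alone, the 15273 tested promoters held 3753 lower and 3379 higher between genotypes without LPS, and 3510 and 1757 with it. Between treatments the numbers were 4995 and 2524 (WT) or 6258 and 3130 (AhR-KO), and 1847 and 1218 for the interaction.

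Motifs were counted on both strands from 250 bases before to 50 after the TSS of each tested promoter, as a description without a test. The XRE core GCGTG was present in 46.2% of all tested promoters and in 32.5% of those lower in AhR-KO without LPS. The core holds a CpG, and among CpG-poor promoters alone the shares were 16.9% and 18.1%. The NRF1 pattern, which also holds CpGs, was in 7.82% of all promoters, in 11.7% of CpG-rich ones, and in 1.28% of CpG-rich ones lower in AhR-KO with LPS and 4.12% of those lowered by LPS in AhR-KO. The site of SP and KLF factors (GGGCGG) was in 58.1% of all. The AP-1 site TGANTCA was in 5.83% of all promoters, in 14% and 15% of those raised by LPS in WT and AhR-KO, and in 15% of those higher in AhR-KO with LPS. Within CpG-poor promoters it was in 11.8%, against 17.8% of those raised and 7.54% of those lowered by LPS in AhR-KO. The ISRE pattern was in 3.62% of all, in 7.13% and 7.96% of those raised by LPS in WT and AhR-KO, and in 10.5% of those with a higher interaction. Within CpG-poor promoters it was in 6.86%, against 8.65%, 10.1% and 14.2% of these.

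The PU.1 site GAGGAAG was in 14.2% of all promoters and in 19.4% and 18.9% of those lowered by LPS in WT and AhR-KO, and within CpG-poor promoters in 19.9% against 24% of those lowered in AhR-KO. NF-kB runs were in 3.84% of all and in 5.77% and 4.76% of those raised by LPS, and within CpG-poor promoters in 4.41% against 5.77% and 5.46%. The C/EBP site TTGCNNAA was in 8.87% of all and in 14% and 14.2% of those raised, but within CpG-poor promoters the shares were 13.9% against 15.3% and 15.4%. The TATA box (TATAAA) was in 8.32% of all and in 20% of those higher in AhR-KO with LPS, and within CpG-poor promoters in 15.6% against 22.3%. For the NF-Y site CCAAT the share of all was 35.8%, for the CRE site TGACGTC 4.87% and for the YY1 site AAGATGG 6.53%. The letters of the motifs differ in CpG and GC content, as the classes of promoters do, and within the CpG-poor class the shares of the C/EBP and XRE letters lay close to that of the class.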

How the data were processed

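ATAC-seq was measured in 24 libraries of mouse BMDMs, 6 for each of the 4 groups named in the labels. The authors processed the reads with nf-core atacseq and mm10 as the genome (trimming, alignment, filtering, broad peak calling with MACS2 in each library and a consensus of all libraries, with no pooling of replicates) after bcl2fastq 2.20.0. They deposited raw fragment counts per consensus peak from featureCounts 2.0.1 and 1 list of broad peaks per library, whose last column, the −log10 q-value per the file headers and format, had lowest values of 1 to 1.03. Starts in the count table equalled starts of the broad peaks, which count from 0, without exception, so 1 was added for the positions printed. No column belonged to samples of another series.

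TSSs were taken from the GENCODE vM21 basic annotation of GRCm38, sequences from RefSeq. The RefSeq TSS of the 6 printed promoters lay up to 60 bases from the GENCODE one. The counts were fitted in R 4.3.3 with edgeR 4.0.16 (filterByExpr by group, TMM, trended dispersion, robust quasi-likelihood fit) on all 24 libraries with group as the only term, and adjusted by Benjamini-Hochberg over 174193 peaks. The fold and p thresholds of a DAR are those of the study, whose own model is not given in the sources used here. An interval was the log2 fold change ± 2.1 SE. The 3 measures per library were compared by exact two-sided permutation tests in 4 comparisons each and adjusted over 12. The procedure was also run on simulated counts in which few promoters changed and the libraries had no GC tilt. That run cannot check the procedure where many peaks change, as they did here. A promoter was called in a library where that library's broad peaks overlapped it. Counting error limits rare promoters, and totals of 8.54 to 34.6 M are those inside peaks, not of whole libraries.

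The promoters, the gene lists and the tests were chosen with earlier results of these data known. Named are, per comparison and direction, the 5 DARs with the smallest p, of each list the members called (beyond the 4 with the smallest p, these were added after their values were seen), and genes with opposite DARs. Some promoters that this rule names are not reported here, though list counts include them. For a list gene the peak over its TSS was used, or else the nearest. Alternatives were DESeq2 1.42.0 and its size factors (RLE), no filter, the replicate number as a block, an offset for GC content from 50 bins, other fold thresholds, other promoter windows, and leaving out WT unstimulated replicate 5 or the promoters near Ahr. Figures were drawn with matplotlib 3.10.9.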

Additional observations from a re-analysis of the deposited data

Results flagged for a closer look

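A library stood apart from the other 5 of its group, by the gap to its neighbour over the range, in 15 of 280 groups examined (5.36%, where chance gives about 5%), over 67 promoters and the 3 measures per library. In WT unstimulated these were Aebp2 replicate 2 (highest, 9.02 CPM), Bank1 replicate 1 (highest, 59.5 CPM), Clec16a replicate 4 (highest, 1.2 CPM) and Tjp1 replicate 5 (lowest, 9.77 CPM). In AhR-KO unstimulated they were Gsta1 replicate 2 (highest, 0.703 CPM), Ifit1 replicate 3 (highest, 11.5 CPM), Slc12a7 replicate 6 (highest, 36.2 CPM), Tjp1 replicate 1 (lowest, 3.86 CPM) and Tspan14 replicate 6 (highest, 26 CPM). In WT LPS it was Rlbp1 replicate 4 (lowest, 8.96 CPM). In AhR-KO LPS they were Atp13a4 replicate 4 (highest, 6.85 CPM), Cgref1 replicate 6 (lowest, 21.4 CPM), Glt28d2 replicate 5 (lowest, 24.9 CPM), Gpr161 replicate 4 (highest, 0.871 CPM) and Myc replicate 3 (highest, 12.1 CPM).

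The genotype effect differed between treatments, by the interaction term of edgeR as a DAR, at 39 of the 67 promoters. The 67 were named for small p-values, those of the interaction included, so this share follows from their choice and stands against 4.58% of all tested promoters and 10.4% of all tested peaks. Among these, on the log2 scale, it was higher with LPS at Chil5 (2.09), Hif3a (2.08), Gpr161 (2.04), Fam167a (1.75), Ccl5 (1.64), Retn (1.38), Tjp1 (1.16) and Gtf2i (1.07), of which Chil5, Gpr161, Fam167a and Gtf2i are promoters that AhR-KO had lost without LPS. Smaller positive values were those of Serpinb2 (0.94), Rsad2 (0.92), Atp13a4 (0.88), Isg20 (0.87), Glt28d2 (0.85), Oasl1 (0.84), Met (0.67) and Ifit1 (0.61). It was lower with LPS at Tspan14 (-1.61), Gprc5c (-1.19), Ang2 (-1.18), Gsc (-1.13), Snx24 (-1.0) and Tgfbi (-1.0), and further at Bank1 (-0.89), Ccl22 (-0.87), Ffar2 (-0.87), Ccno (-0.86), Wnt1 (-0.83), Slc12a7 (-0.78), Polr2e (-0.78), Pknox2 (-0.78), Il1a (-0.77), Slc7a7 (-0.75), Fli1 (-0.74), Vill (-0.71), Csf2rb (-0.69), Myc (-0.69), Ear2 (-0.67) and Fabp5 (-0.63). Ear2, Ang2 and Glt28d2 have close paralogs, and Ifit1 shares its peak with a related gene, so that their counts may hold reads of these.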

How the results depend on the processing

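Of 156 recomputed results that answer a comparison, 124 kept their direction and their side of the threshold (counts of DARs within 1.5 times), and the other 32 follow. With a threshold of 2-fold the lower and higher promoter DARs were 351 and 117 between genotypes without LPS, 381 and 130 with LPS, 474 and 530 with LPS in WT, 702 and 572 with LPS in AhR-KO, and 95 and 100 in the interaction, so that the majority turned in WT with LPS and in the interaction. With no fold threshold they were 3753 and 3379, 3510 and 1757, 4995 and 2524, 6258 and 3130, and 1847 and 1218. Among peaks over a TSS alone, which are fewer, they were 553 and 264 without LPS, 189 higher with LPS, 809 and 542 in WT, 616 higher in AhR-KO and 146 higher in the interaction, and the LPS difference in the CpG-poor share in AhR-KO was -0.00461 points in place of 0.0102 (adjusted exact permutation p = 0.955). Without WT unstimulated replicate 5, whose total was the lowest, the LPS difference in the promoter share in WT was -1.49 points (adjusted exact permutation p = 0.0584), that in called promoters 186 (adjusted exact permutation p = 0.0584), and the unstimulated genotype difference in called promoters -116 in place of 33.8 (adjusted exact permutation p = 0.274). With the peak midpoint within 1 kb the LPS difference in called promoters in WT was 264 (adjusted exact permutation p = 0.0779). DESeq2 gave 704 lower and 624 higher promoters between genotypes without LPS and 607 and 191 in the interaction, and no scaling moved a promoter median by over 0.1 on the log2 scale.

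Whether replicate numbers pair the libraries is not stated, and the main fit and the permutation tests were unpaired. Not every same-numbered pair correlated at over 0.1, which cannot decide whether a number marks an animal. Within a genotype same-numbered libraries of both treatments did deviate together in part, at 0.0486 to 0.343 in WT (5 of 6 over 0.1, mean 0.234 against -0.0452 for other numbers, 4 of 6 best with their own) and 0.00876 to 0.21 in AhR-KO (3 of 6 over 0.1, mean 0.108 against -0.0214, 3 of 6). Deviations correlated at -0.144 to 0.0615 between genotypes without LPS and -0.127 to 0.268 with LPS. With the replicate number as a block the counts were 852 and 470, 1066 and 404, 1338 and 959, 2013 and 1032, and 495 and 246, and with the block within genotype the interaction gave 533 and 290. Of 347 named promoters and comparisons, 10 were no longer DARs with RLE factors, 10 with DESeq2, 3 with the block, 8 without WT unstimulated replicate 5, 27 with the GC offset and 191 at 2-fold, and none changed direction. Depth limits the promoters with few counts: a promoter that is no DAR may still differ.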
